A study of Rattus norvegicus with 18 samples.

Results

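Gene expression in the intestine was compared between rats that received Changbing Formula after irradiation and rats that were irradiated only, across all genes of the deposited table. The 12 libraries were chosen by their titles from the 18 of the series: 6 of irradiated rats and 6 of irradiated rats given the formula. All were wild-type Sprague-Dawley rats, and both groups had been given X-rays once, at 10 Gy. The groups therefore differ by the formula alone, as far as the labels say. A further 6 libraries of rats with treatment "none" serve here as the untreated background level. The labels name the tissue as intestine without a segment. The composition, dose and schedule of the formula, any vehicle given to the irradiated rats, the time between irradiation and collection, and age and sex are not given in the sources used here. Replicates are numbered 1 to 6 within each group as in the titles, and the labels do not state that each library is a separate rat, so that p-values measure the spread between these libraries.

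Ionising radiation injures the intestine chiefly through the dividing cells at the base of the crypts, whose stem cells renew the epithelium. Loss of these cells leaves villi without replacement, weakens the barrier, and is followed by inflammation and, later, by deposition of matrix in the wall. Bulk intestinal tissue holds epithelium, immune cells, muscle, nerves and vessels together, and a lower level of a gene in it cannot tell fewer cells of a type apart from less RNA per cell.

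The table identifies genes by Ensembl ID only, and 0 of its 30562 IDs matched the gene names used beside it. Genes are therefore given by ID or by position on mRatBN7.2, without symbols or functions, and the labelled tissue could not be checked against its marker genes.

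The 12 libraries held between 33598572 and 48398184 counts. A principal component analysis of their log2 CPM (counts scaled to the TMM-adjusted library total) did not divide them by treatment. The first component held 40.5% of the variance and the second 17.9%. Irradiated 4 lay at 226 on the first component, and the next library of its group, irradiated 3, lay at 37.5. Irradiated plus formula 4 lay at 42.2, with the next library of its group at -25.7. Irradiated 1 had the highest value on the second component, 101. Irradiated 4 thus stood apart from the other irradiated libraries. Its median absolute log2 difference from the rest of its group was 0.94, against 0.35 to 0.46 for the other irradiated libraries. Irradiated 1, at 0.46, was set off mainly on the second component. The main counts below are also given without irradiated 1 and 4.

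**Figure D1:**
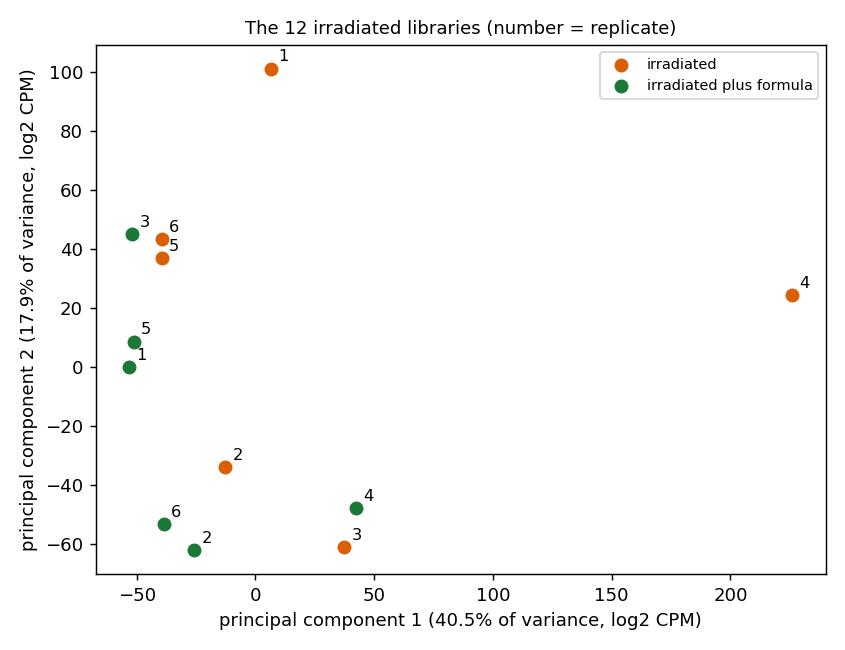
Position of the 6 irradiated (orange) and 6 irradiated plus formula (green) libraries on the first (horizontal) and second (vertical) principal component of log2 CPM; each point is a library and its number is the replicate. Irradiated 4 lies far to the right at 226 and irradiated 1 highest at 101, and the other libraries of both groups are mixed.

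No gene differed between the formula and irradiated-only libraries after adjustment for multiple testing in edgeR's quasi-likelihood test. Of 16593 genes tested, 0 had an adjusted p below 0.05 (0%), with 0.445 as the lowest value. An unadjusted p below 0.05 was found for 928 genes (5.59%), of which 249 were higher (1.5%) and 679 lower (4.09%) with the formula. Where no gene differs, a fraction of about 0.05 falls below this threshold on average. An unadjusted edgeR p from 0.05 to 0.1 was found for 1154 genes, more than the 928 below 0.05. The counts of higher and lower genes at an unadjusted p below 0.05 were 378 and 315 with limma-voom. They were 411 and 449 with limma-voom with quality weights. They were 196 and 215 in edgeR without irradiated 1, irradiated 4 and control 2, a control library that also stood apart. The excess of lower genes was thus small with quality weights and with those libraries left out, and it was reversed with limma-voom without weights. The total of 928 became 535 when irradiated 4 was left out and 571 when formula library 6 was. It became 1412 when irradiated 5 was left out and 1447 when formula library 4 was. With irradiated 1 alone left out, 208 genes were higher and 616 lower, so that the excess of lower genes remained in that fit.

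**Figure D2:**
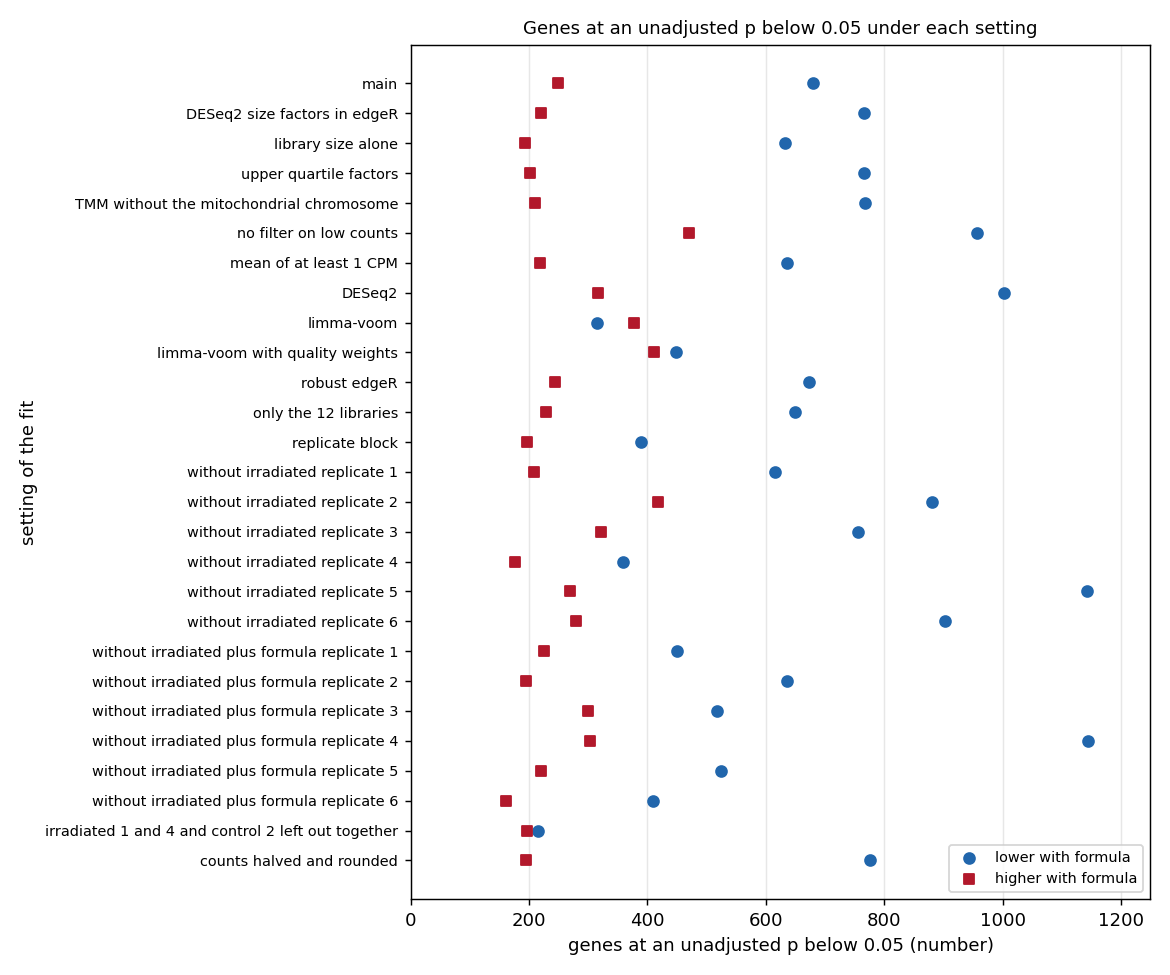
Number of genes at an unadjusted p below 0.05 (horizontal axis) that were lower (blue circles) or higher (red squares) with the formula, for each setting of the fit (vertical axis; "main" is the edgeR fit of 18 libraries). Lower genes outnumber higher genes in most settings, but the numbers are 315 and 378 with limma-voom and 215 and 196 with 3 libraries left out.

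A Wald test with DESeq2 on the same counts called 8 of 15969 genes at an adjusted p below 0.05 (0.0501%), 2 of them higher (0.0125%) and 6 lower (0.0376%) with the formula. limma-voom called 0 of 16593 genes (0%; lowest adjusted p 0.192), and 0 with quality weights (0%; lowest adjusted p 0.375). The DESeq2 count ran from 4, when formula library 5 was left out, to 177, when formula library 4 was. Among irradiated libraries, leaving out library 1 gave 5 calls, library 2 gave 26, library 3 gave 21 and library 5 gave 13. Among formula libraries, leaving out library 2 gave 5 calls and library 3 gave 13. With irradiated 1, irradiated 4 and control 2 left out together, 5 genes were called, all of them among the 8. These 8 genes, none of which passed in edgeR, are described next with their level in each library.

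ENSRNOG00000039858 had the lowest p of all genes, and its level was higher with the formula. The gene lies on the reverse strand of chromosome 7 at 8347314 to 8353988, with 10 exons and 1831 exonic bases. Its TMM-scaled CPM in irradiated libraries 1 to 6 was 3.99, 6.04, 7.09, 4.07, 3.37 and 4.23. In irradiated plus formula libraries 1 to 6 it was 10.6, 10.4, 9.75, 13.6, 9.54 and 12.2. Each formula library was above every irradiated library. The groups averaged 4.80 ± 1.44 and 11.02 ± 1.55 CPM, and control libraries 6.23 ± 1.45 CPM (SD, n = 6 each), with a highest control level of 8.64 CPM that was also below all formula libraries. The log2 difference was 1.20 ± 0.21 (SE), a 2.29-fold higher level, with a 95% interval of 0.75 to 1.65. The adjusted p was 0.445 in edgeR, between 0.130 and 0.9999 with single libraries left out in that test, and 3.9e-05 in DESeq2, where it stayed below 0.05 with each of the 12 libraries left out. Counting without strand, a gene on the opposite strand shares 116 exonic bases with it, and that gene had a log2 difference of 0.64 at an unadjusted p of 0.0149 in edgeR; reads in the shared bases cannot be assigned to one of them.

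ENSRNOG00000006622, the other gene called higher by DESeq2, also lies on chromosome 7, at 18529823 to 18594091 on the forward strand, with 13 exons. Irradiated libraries 1 to 6 had 22.4, 8.79, 21.1, 14.7, 16.5 and 13.7 CPM. Formula libraries 1 to 6 had 27.9, 38.2, 21.98, 38.4, 37.3 and 47.4 CPM. Formula library 3 lay between irradiated 3 and irradiated 1, and the other 5 formula libraries were above all irradiated ones. The irradiated and control means were 16.2 ± 5.01 and 16.3 ± 4.13 CPM, against 35.2 ± 8.97 CPM with the formula (SD, n = 6 each). The log2 difference was 1.12 ± 0.24 (SE; 2.17-fold), with an adjusted p of 0.770 in edgeR and 0.0246 in DESeq2. The DESeq2 call was lost without irradiated 4, 5 or 6 and without formula library 2, 5 or 6, while the log2 difference in those fits was 0.99 to 1.09, against 1.09 with all libraries.

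ENSRNOG00000055408 had the lowest p among genes that were lower with the formula. It lies on the forward strand of chromosome 7 at 110595091 to 110601473 and has 9 exons. Irradiated libraries 1 to 6 had 2.74, 4.19, 2.42, 3.83, 2.04 and 1.99 CPM. Formula libraries 1 to 6 had 0.947, 0.969, 1.46, 0.917, 1.43 and 0.936 CPM. The groups did not overlap, and the controls, from 2.09 to 4.43 CPM, lay in and slightly above the irradiated range. The means were 2.87 ± 0.93 and 1.11 ± 0.26 CPM, with 3.03 ± 0.84 CPM in controls (SD, n = 6 each). The log2 difference was -1.37 ± 0.27 (SE), a 2.58-fold lower level, with an adjusted p of 0.729 in edgeR and 0.00058 in DESeq2, where it stayed below 0.05 with each of the 12 libraries left out.

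ENSRNOG00000006280, on the reverse strand of chromosome 5 at 121211278 to 121233688 with 12 exons, had a much larger difference, whose size rested more on irradiated 1. Irradiated libraries 1 to 6 had 78.0, 22.7, 7.84, 7.52, 1.26 and 1.65 CPM. Formula libraries 1 to 6 had 0.798, 0.242, 0.153, 0.438, 1.28 and 0.220 CPM. All formula libraries lay below irradiated 1, 2, 3, 4 and 6, and formula library 5 lay just above irradiated 5. Control libraries 1 to 6, at 0.637, 23.6, 3.04, 1.09, 17.4 and 8.69 CPM, lay partly within both other groups, with 4 formula libraries below every control and irradiated 1 above every control. Irradiated 1 held 65.6% of the irradiated sum. The log2 difference was -5.24 ± 1.15 (SE), with an adjusted p of 0.770 in edgeR and 4.0e-05 in DESeq2. Without irradiated 1, DESeq2 gave -3.99 and an adjusted p of 0.0116. The DESeq2 adjusted p stayed below 0.05 with each of the 12 libraries left out. It was 0.0259 without irradiated 1, irradiated 4 and control 2.

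**Figure D3:**
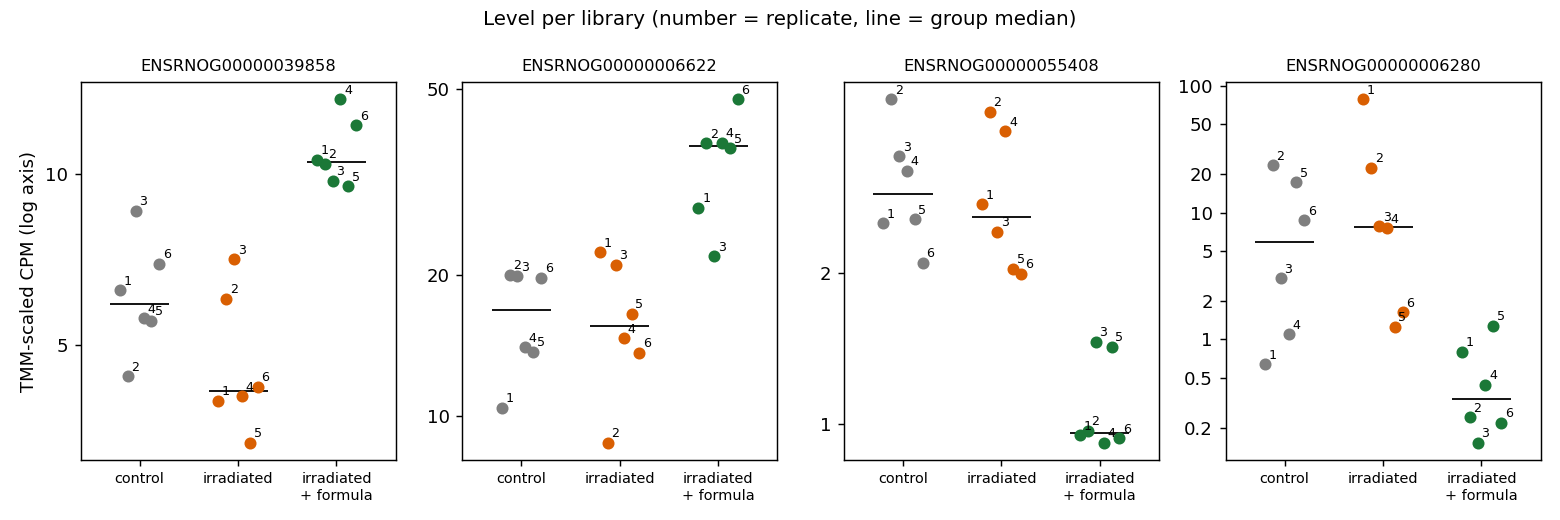
TMM-scaled CPM on a log axis (vertical) of 4 genes in the control (grey), irradiated (orange) and irradiated plus formula (green) libraries; each point is a library with its replicate number, and the line is the group median. For ENSRNOG00000039858 and ENSRNOG00000055408 the formula libraries lie apart from the irradiated ones, while ENSRNOG00000006622 overlaps in formula library 3 and ENSRNOG00000006280 in formula library 5.

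The other 4 genes called by DESeq2 were lower with the formula, and 3 of them were high in 1 or 2 irradiated libraries. A gene of 3 exons on the forward strand of chromosome 1, at 96175440 to 96180745, had 84.2, 30.6, 64.0, 30.2, 22.2 and 12.1 CPM in irradiated libraries 1 to 6. It had 12.4, 6.18, 11.6, 12.1, 5.38 and 14.9 CPM in formula libraries 1 to 6. Only irradiated 6 reached into the formula range. The control mean was 141 ± 70.1 CPM (SD, n = 6), so that the order of the means was control, irradiated, irradiated plus formula. The log2 difference was -1.96 ± 0.44 (SE; adjusted p 0.770 in edgeR, 0.0168 in DESeq2), and without irradiated 1 DESeq2 gave a log2 difference of -1.61 and an adjusted p of 0.243. That call was also lost without irradiated 3, formula library 2 or formula library 5, at log2 differences of -1.87 to -1.83.

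A short gene on chromosome 6, at 134596525 to 134597057 on the reverse strand, had 33.3 CPM in irradiated 4 and 0.496 to 6.45 CPM in the other irradiated libraries. Control 2 had 42.8 CPM, and the other controls had 0.199 to 2.99 CPM. Formula libraries had 0 to 0.275 CPM, and 2 of them held no count of it. The irradiated and formula groups did not overlap, at a log2 difference of -6.37 ± 1.61 (SE), and DESeq2 gave -6.45 at an adjusted p of 0.00058. Without irradiated 4 alone, DESeq2 gave -4.77 and an adjusted p of 0.0834. Without irradiated 1, irradiated 4 and control 2 it gave -5.05 and 0.00121, so that the gene was called again. A gene on chromosome 7, at 110403173 to 110404802 on the reverse strand, had 483 CPM in irradiated 1, 81.6 in irradiated 4 and at most 1.76 in the other irradiated libraries. It had 226 CPM in control 2 and at most 0.307 CPM in the formula libraries. In DESeq2 its log2 difference of -9.01 at an adjusted p of 0.0168 became -1.63 at 0.9997 without irradiated 1, irradiated 4 and control 2. A gene on chromosome 10, at 63815308 to 63851210 on the forward strand, had 30.1 CPM in irradiated 1, at most 2.88 in the other irradiated libraries and at most 0.307 with the formula. It had 14.3 CPM in control 2 and at most 1.05 CPM in the other controls. In DESeq2 its log2 difference of -5.29 at an adjusted p of 0.0168 became -3.03 at 0.646 without irradiated 1. The DESeq2 calls of the genes on chromosomes 7 and 10 were also lost when formula library 1, 2, 5 or 6 was left out, at adjusted p-values of 0.0596 to 0.105. The log2 differences in those fits were -9.04 to -8.78 for the gene on chromosome 7 and -5.31 to -5.10 for the gene on chromosome 10. In some other fits DESeq2 gave no adjusted p, so that the gene was not called. This held for chromosome 7 without irradiated 1 (log2 difference -6.51) or irradiated 4 (-9.05). It also held for chromosome 10 without irradiated 5 (-5.44) and for chromosome 6 without irradiated 3 (-6.50). For each of these 3 genes, the highest irradiated level was that of irradiated 1 or irradiated 4.

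Complete separation of the groups was used as a second description, with no test. The lowest level in one group was above the highest in the other for 31 genes (0.187% of those tested), 13 of them higher (0.0783%) and 18 lower (0.108%) with the formula. With 6 libraries per group there are 924 arrangements of the labels, and 1 of them separates a gene in each direction. The share expected from this alone is not below the 0.187% seen. These genes are therefore described without being read as changed by the formula. The 13 higher genes lay on 9 chromosomes and had log2 differences of 0.27 to 1.38, with a median of 0.61; 3 reached 2-fold and 11 had an unadjusted edgeR p below 0.05. The 18 lower genes lay on 12 chromosomes, with sizes from 0.22 to 6.37 and a median of -0.93; 9 reached 2-fold and 16 had an unadjusted edgeR p below 0.05. Most of the higher genes thus separated at differences under 2-fold. Over all genes tested, 5.59% had an unadjusted edgeR p below 0.05. The 31 genes were picked by their separation in the same libraries, which favours a low p. The counts of low p-values among them are therefore no separate support. With single libraries left out, the total of 31 became 36 to 113, the lowest when formula library 1 and the highest when irradiated 5 was left out. Among the 18 lower genes, irradiated 1 or irradiated 4 held the highest irradiated level of 15, and the same share over all genes is not given here. The median log2 difference of the 18 genes was -0.74 in edgeR without irradiated 1, irradiated 4 and control 2.

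The control mean was set beside these genes as the untreated level. For the 13 higher genes it lay between the group means for 5 and on the far side of the irradiated mean from the formula mean for 7. For the 18 lower genes it lay between them for 12 and beyond the irradiated mean for 6. The genes were selected by their irradiated and formula levels, and the same tally over all genes was not made. It therefore cannot tell whether the formula moved levels towards or away from those of untreated rats. A gene of 23 exons on the forward strand of chromosome 1, at 167331633 to 167430231, was an example of the far side. It had 26.1, 43.4, 46.2, 16.2, 48.9 and 52.7 CPM in irradiated libraries 1 to 6 and 71.9, 82.8, 57.7, 83.2, 86.2 and 104 CPM in formula libraries 1 to 6. The controls averaged 17.8 ± 5.68 CPM (SD, n = 6), below both other groups. The log2 difference was 1.06 ± 0.27 (SE), with an adjusted p of 0.770 in edgeR and 0.0946 in DESeq2. Another gene of the 7, on chromosome 6, had close means of 18.1 CPM in control and 18.3 CPM in irradiated libraries.

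The 10 genes with the lowest p in each direction, among those with a mean of at least 1 CPM, were distributed over 8 chromosomes each. The 10 higher genes had log2 differences of 0.42 to 6.32 and adjusted edgeR p-values of 0.445 to 0.770, and 6 of them had no overlap between the groups. The gene at 6.32, on chromosome 8, had 74.8 CPM in formula library 2 and at most 0.931 CPM in the other formula libraries. The 10 lower genes had log2 differences of -6.37 to -0.76 and adjusted edgeR p-values of 0.729 to 0.770; 2 had no overlap, and 7 had their highest irradiated level in irradiated 1 or 4. Their median log2 difference of -1.51 was -1.17 without those 2 libraries and control 2. The share of all genes with their highest irradiated level in irradiated 1 or 4 is not given here. As the genes in both directions were picked by p, their counts without overlap are no separate support.

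In edgeR, large differences were more often lower than higher with the formula, and nearly all lower ones had their highest irradiated level in irradiated 1 or 4. A fitted fold of 4 or more was found for 378 lower genes (2.28%) and 43 higher genes (0.259%). Of the 378, 245 had their highest irradiated level in irradiated 4 and 124 in irradiated 1, which makes 369 (97.6%). That highest library held a median of 80.1% of the sum of the irradiated levels, and more than 50% for 357 genes. The share of all genes tested with their highest irradiated level in irradiated 1 or 4 is not given here. The 97.6% therefore has no base to be set against. Of the 378 genes, 153 had an unadjusted edgeR p below 0.05 and 4 had no overlap between the groups. The 43 higher genes had their highest formula level in library 2 for 16, library 6 for 10, library 1 for 8, libraries 3 and 5 for 4 each and library 4 for 1. That highest formula library held a median of 45.2% of the sum of the formula levels, and more than 50% for 18 genes. Of the 43 higher genes, 33 had an unadjusted edgeR p below 0.05 and 0 separated the groups completely. Genes in both directions were picked by the size of the fitted fold, so their counts of low p-values are no separate support.

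**Figure D4:**
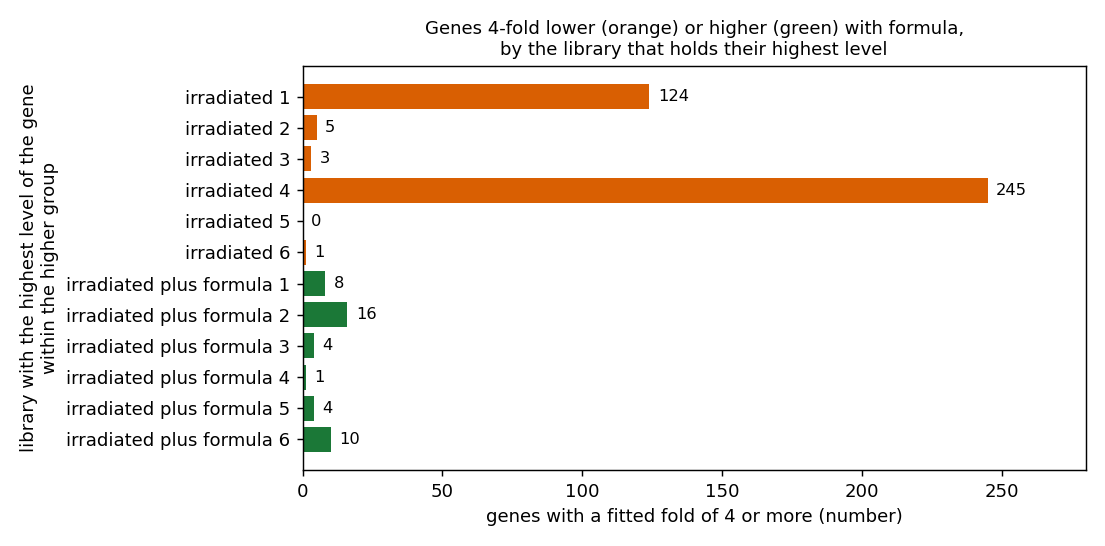
Number of genes with a fitted fold of 4 or more (horizontal axis) by the library that holds their highest level (vertical axis): genes lower with the formula by irradiated library (orange), genes higher by formula library (green). Irradiated 4 and irradiated 1 hold 245 and 124 of the 378 lower genes, and formula library 2 holds 16 of the 43 higher genes.

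The count of large differences depended on how a group's level was summarised. By the ratio of group means plus 0.5 CPM, 227 genes were 4-fold lower and 19 higher. By the ratio of group medians plus 0.5 CPM, which a single high library does not set, 31 were 4-fold lower and 49 higher. By the ratio of means without irradiated 1 and 4, 18 were lower and 13 higher. In limma-voom 158 were 4-fold lower and 196 higher, so that the direction of the excess turned with the medians and with limma-voom. In edgeR without irradiated 4 alone the count of 378 lower genes became 162, whereas without irradiated 1 alone it became 401. Without formula library 4 it became 720, and without irradiated 1, irradiated 4 and control 2 it became 56, in a fit of 16838 genes. Of the 378, 367 were still tested in that fit and 40 of them kept a 4-fold lower level. Of the 43 higher genes, 26 kept a 4-fold higher level there. The count of 43 higher genes became 104 when irradiated 3 was left out, 75 when irradiated 2 was and 71 when irradiated 6 was. It became 33 when formula library 2 was left out.

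Some of the genes that were 4-fold lower lay close together. Chromosome 4 held 85 of them among 1047 genes tested (8.12%) and chromosome 6 held 37 of 721 (5.13%). Chromosome 1 held 47 of 2090 (2.25%), close to the 2.28% of all genes. In windows of 1 Mb, 90 of the 378 genes lay in windows with 5 or more, and 189 were the only such gene of their window. The window that starts at 100 Mb on chromosome 4 held 12 genes 4-fold lower of 12 tested, and the windows at 101 and 98 Mb held 10 of 12 and 10 of 13. The window at 134 Mb on chromosome 6 held 11 of 12, and that at 81 Mb on chromosome 11 held 9 of 11. In edgeR without irradiated 4, these 5 windows held 1 or 2 each, chromosome 4 held 22 and chromosome 6 held 11. Without irradiated 1, irradiated 4 and control 2 the windows held 1 to 3 each.

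The summed level of the 12 genes in the window at 100 Mb of chromosome 4 was 180 CPM in irradiated 4, 31.1 in irradiated 3, 8.19 in irradiated 2 and at most 3.41 in irradiated 1, 5 and 6. Among formula libraries it was 19.1 CPM in formula library 4 and at most 2.09 in the others. Control 2 had 119 CPM, and the other controls at most 5.57. The 11 genes that were 4-fold lower in the window on chromosome 6 summed to 169 CPM in irradiated 4, 46.8 in irradiated 3, 19.9 in formula library 4 and 173 in control 2. The 9 genes in the window on chromosome 11 summed to 407 CPM in irradiated 4, 69.9 in irradiated 3, 51.7 in formula library 4 and 314 in control 2. These 4 libraries had the highest sums in all 3 windows. They are 2 irradiated libraries, 1 formula library and 1 control.

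The spread between libraries was wider in the irradiated-only group. The median SD of log2 CPM over genes was 0.66 in irradiated, 0.43 in irradiated plus formula and 0.54 in control libraries, and 78.3% of genes had a larger SD in the irradiated than in the formula group. Without irradiated 4 the irradiated value was 0.49 and the share 59.4%. Without irradiated 1 and 4 they were 0.44 and 52.9%. These values describe the libraries, and their difference was not tested.

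The precision of the comparison varied with the level of a gene. The 95% interval of the log2 difference lay within 2-fold in both directions for 48.2% of all genes tested. This share was 6.87% below 1 CPM, 31.8% from 1 to below 10 CPM, 67.6% from 10 to below 100 CPM and 61.9% at 100 CPM or more. For the remaining genes the interval reached a 2-fold difference in at least 1 direction.

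The share of counts from the mitochondrial chromosome did not differ between the groups beyond the spread of the libraries. The share was 5.77% at the lowest, 17.02% at the median and 39.7% at the highest in irradiated libraries, and 17.8%, 22.7% and 25.7% in formula libraries. The formula range lay inside the irradiated range. The means were 19.9% ± 12.0 and 22.4% ± 3.30, with 19.5% ± 5.34 in controls (SD, n = 6 each). The difference of 2.43 percentage points had a two-sided exact permutation p of 0.647 over 924 arrangements, and it was -0.40 without irradiated 4 and 6.39 without irradiated 5 (exact permutation p = 0.0996). Of the 37 genes of that chromosome, 17 were tested, and 16 had a higher and 1 a lower fitted level with the formula. Over all genes tested, 52.9% had a lower fitted level. The median log2 difference of the 17 genes was 0.16, against -0.02 over all genes. None of the 17 had an unadjusted edgeR p below 0.05 (lowest p 0.419). They lie on the chromosome whose share varied between libraries, so they are not 17 separate observations.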

How the data were processed

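RNA of rat intestine was sequenced as poly(A)-selected libraries, 6 per group. The deposited values are raw gene counts that the authors made with featureCounts 2.1.1 from alignments to mRatBN7.2 and Ensembl release 110, per the file headers; the submitters' processing notes also name FastQC, fastp, SAMtools and STAR. No strand or read-pair option was set, per the file headers. Of counts from 1 to below 40, 67.4% to 74.6% were even in the 12 libraries, so both reads of a pair are largely counted and counting error is larger than the counts imply. Exon lengths (another column of the deposited table) were used only to describe genes. All 18 free-text descriptions call the rats untreated, whereas titles and treatment fields give the groups used here. The batch label is the same throughout. Unused columns of per-sample values numbered 0.

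Counts were tested in R 4.3.3 with edgeR 4.0.16 (quasi-likelihood, TMM, filterByExpr) in 1 model of 18 libraries without covariates, with Benjamini-Hochberg adjustment over 16593 genes and a threshold of 0.05. The biological coefficient of variation was 60.8%. The SE of a log2 difference is its size divided by the square root of F, and is approximate. DESeq2 1.42.0, limma 3.58.1, other scalings and filters, a replicate block and libraries left out were the alternatives, and the procedure was tested on simulated data. Principal components used a prior count of 2. No within-group pair of libraries agreed within sampling noise (lowest median chi-square 6.38 over 30 pairs, where sampling gives 0.455, or 0.910 with both mates counted).

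The comparison, its lists and its tests were chosen with earlier results of these data known. The rule for named genes was every gene called by edgeR or DESeq2, the 10 lowest p-values per direction at a mean of at least 1 CPM, and members of 36 gene lists. No list was run, because 0 IDs matched a symbol, and at most 2 IDs per direction are printed. The 4-fold threshold, 1 Mb windows, level classes and spread were chosen after seeing the data, as were halved counts and DESeq2 with libraries left out. The gene shown on chromosome 1 at 167331633 is within the rule.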

Additional observations from a re-analysis of the deposited data

Results flagged for a closer look

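Among 24 checks of a single high or low library within a group of 6, 6 found a library farther from its group than the 95% limit of Dixon's test. Chance gives about 1 in 20, and the genes checked had been picked by their values. ENSRNOG00000006280 had 78.0 CPM in irradiated 1, with the next irradiated library at 22.7 CPM. The gene on chromosome 6 at 134596525 had 33.3 CPM in irradiated 4, with the next at 6.45 CPM. The gene on chromosome 7 at 110403173 had 483 CPM in irradiated 1, with the next at 81.6 CPM. The gene on chromosome 10 at 63815308 had 30.1 CPM in irradiated 1, with the next at 2.88 CPM. On the first principal component, irradiated 4 lay at 226 with the next irradiated library at 37.5, and irradiated plus formula 4 lay at 42.2 with the next formula library at -25.7.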

How the results depend on the processing

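The count of genes at an adjusted p below 0.05 was 0 in 25 of 26 alternatives to edgeR's fit and 8 with DESeq2, and the cause of that difference was not tested. The 12 fits that each left out a library also gave 0. Genes at an unadjusted p below 0.05 numbered 1427 without a filter on low counts and 411 without irradiated 1, irradiated 4 and control 2, against 928. Counts of 4-fold lower and higher genes, 378 and 43 in edgeR, were 1292 and 624 without the filter, 128 and 69 in limma-voom with quality weights, and 260 and 72 with the replicate block. The count of genes whose groups do not overlap was 24 to 39 under the other scalings, filters and halved counts. It ran from 36 to 113 with single libraries left out and was 84 with the 3 libraries left out, where fewer samples make separation easier. Against 31 genes, it was 51, 104, 70, 113 and 60 without irradiated 1, 2, 3, 5 and 6, and 69, 58, 96 and 56 without formula library 2, 3, 4 and 5. The difference in mitochondrial share ran from -0.40 percentage points, reversed without irradiated 4 (exact permutation p = 0.952), to 6.39 without irradiated 5 (exact permutation p = 0.0996). With the replicate number as a block, 0 genes passed in edgeR (lowest adjusted p 0.901) and 586 had an unadjusted p below 0.05. No regular pairing by number was seen. Of 6 same-numbered pairs, 2 had deviations correlated above 0.1 (range -0.51 to 0.61). For 3 of 12 libraries the best match was the library of the same number. So few pairs cannot exclude a pairing. The gene lists and their alternatives were not run, for want of symbols. Intervals were widest below 1 CPM, where 6.87% of genes had a 95% interval within 2-fold, and the part of depth in this was not tested.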
